A study of Mus musculus with 8 samples.

Results

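The comparison described here is that of mouse embryonic stem cells heterozygous for the Nkx2-5 change R141C with wild-type cells after 6 days of differentiation. It was made on 4 of the 8 arrays of the series, chosen by their titles, which give genotype and day: 2 arrays of R141C cells at day 6 and 2 of wild-type cells at day 6. The remaining 4 arrays measured both genotypes at day 0, before differentiation, and were used for the spread between replicates and for day 0 values. All cultures at day 6 had passed through embryoid bodies without the cytokine LIF, begun as hanging drops of 800 cells, kept in suspension for 3 days and plated at day 5 for 24 hours. Per the labels each genotype had 2 biological replicates. No clone, second line or corrected line is named in them, so the change in Nkx2-5 and any other difference between the lines cannot be told apart. Each culture was measured on 1 single-colour Agilent array. The arrays of each genotype at each day also had their own positions on the slide, and position and genotype cannot be told apart.

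Nkx2-5 is a homeobox transcription factor of the early heart, where it works with Gata, T-box and Hand factors to switch on the genes of the contractile apparatus and the natriuretic peptides. Heart muscle forms from an early first field and from a second heart field, a progenitor pool marked by Isl1, Tbx1 and retinoic acid enzymes. Embryoid bodies contain blood, endothelium, endoderm and neural cells beside heart cells, so a bulk signal depends on the make-up of the culture. In such samples fewer cells of a type and less RNA per cell cannot be told apart.

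Values below are log2 signals of 1 probe per gene after each array was shifted so that its 75th percentile was 0, and a difference is R141C minus wild type on that scale. Of 34736 gene names, 25892 were tested, namely those whose probe stood well above background in both replicates of some group. A gene is called separated where the lower array of 1 genotype exceeded the higher array of the other by at least 1 (2-fold). This is a description with no test. The test was limma with Benjamini-Hochberg adjustment over all 25892 genes, and a gene passed at an adjusted p under 0.05. The median difference over all tested genes was 0.07. Members of the lists that were not above background are counted as not tested.

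The 75th percentile of the processed signal was 936.3 and 1243.1 on the R141C arrays and 1359.3 and 1403.5 on the wild-type arrays, and 61.0% and 62.6% of probes against 60.3% and 55.8% were above background. The R141C arrays differed from each other by a median of 0.36 per gene and the wild-type arrays by 0.17. They lay more than 2 apart for 521 genes, against 105 genes for the wild-type arrays. R141C replicate 1 was the farther from wild type. Its correlation with the wild-type arrays across genes was 0.978 and 0.977, that of R141C replicate 2 was 0.988 and 0.989, and the R141C arrays correlated with each other at 0.982 (genes are not independent). Markers of heart progenitors and heart muscle were above background on all 4 arrays for 9 of 9 genes, as were 4 of 4 markers of undifferentiated cells, of endothelium, of red cells and of visceral endoderm. The counts were 4 of 6 for myeloid cells and platelets, 3 of 4 for neurons, 3 of 4 for smooth muscle and 2 of 4 for epicardium. The myeloid marker Spi1 and the neuronal marker Dcx were not tested. Nkx2-5, whose probe measures the transcript and not the base change, was at 1.53 and 1.58 in R141C and at 1.93 and 1.79 in wild type. That difference of -0.30 (SE 0.76) did not pass (adjusted p = 0.927 in limma).

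At day 6 the R141C cultures had low signals for natriuretic peptides, contractile proteins and second heart field regulators, and high signals for some blood genes, interferon-stimulated genes and most Hox genes, with the interferon and Hox medians also higher at day 0. In limma 17 genes passed, 0.0657% of those tested, with 7 higher (0.027%) and 10 lower (0.0386%) in R141C. Before adjustment, 1333 genes had p under 0.05 with R141C higher (5.15%) and 876 with R141C lower (3.38%). The arrays of the genotypes did not overlap for 27.8% of genes with R141C higher and 16.5% with R141C lower. Separated genes numbered 177 with R141C higher (0.684%) and 288 with R141C lower (1.11%), together 1.8% of those tested. These shares are the background for the counts of separated list members below. Of the separated genes, 20 higher and 57 lower were separated by at least 2. Among the higher genes 60 were above background on both R141C arrays and on neither wild-type array, and among the lower genes 40 were above background on both wild-type arrays and on neither R141C array. R141C replicate 1 was farther from the wild-type mean than replicate 2 for 115 of the 177 higher and 216 of the 288 lower genes. Of the 177 higher genes 10, and of the 288 lower genes 9, were also separated in the same direction at day 0. These are larger shares than over all genes, where 0.274% were separated higher and 0.189% lower at day 0. Of the lower genes 1 was separated the other way there.

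**Figure D1:**
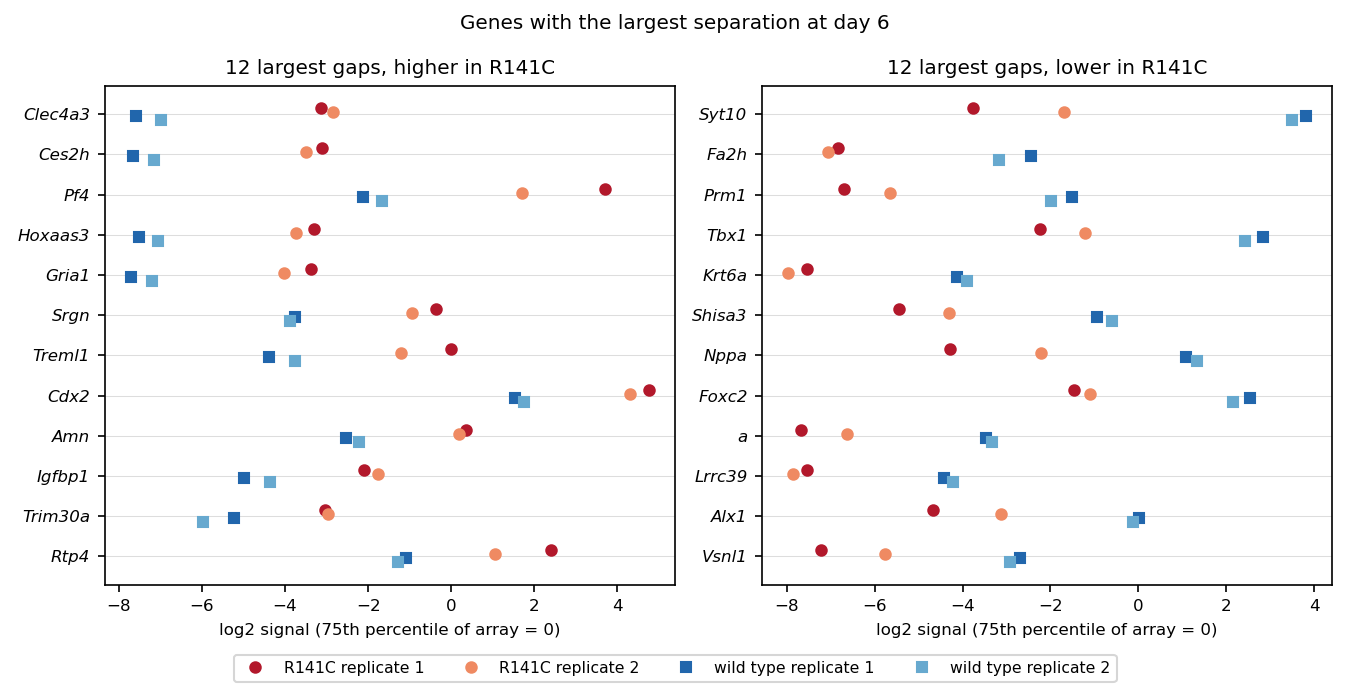
Log2 signal (x axis, 75th percentile of each array at 0) on the 4 day 6 arrays for the 12 named genes with the largest gap in each direction, R141C as circles and wild type as squares. In the left panel both R141C arrays lie above both wild-type arrays for each gene, and the right panel shows genes with the reverse order. Syt10 has the widest gap shown, at -5.18.

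Among the genes that passed, Srgn rose. It encodes serglycin, the proteoglycan of secretory granules in blood cells. Its signal was -0.36 and -0.93 in R141C and -3.76 and -3.87 in wild type, a difference of 3.17 (SE 0.29, adjusted p = 0.0347). Clec4a3, a C-type lectin receptor of myeloid cells, rose, with -3.14 and -2.84 in R141C and -7.58 and -6.99 in wild type (at least 5.19-fold, adjusted p = 0.0429). The bounds are taken against the lowest signal among bright probes of the dim arrays. Ces2h, a carboxylesterase, had -3.11 and -3.50 in R141C and -7.67 and -7.16 in wild type (at least 4.18-fold, adjusted p = 0.0250). Hoxaas3, an antisense RNA of the Hoxa cluster, had -3.30 and -3.73 in R141C and -7.53 and -7.05 in wild type (at least 3.61-fold, adjusted p = 0.0286). Gria1, a glutamate receptor subunit, had -3.37 and -4.02 in R141C and -7.72 and -7.20 in wild type (at least 3.19-fold, adjusted p = 0.0327). On both R141C arrays these 4 signals were dim but above background, and none was above it in wild type. They were tested only because of the R141C day 6 arrays, as neither genotype was above background at day 0. The limma spread for these 4 genes came largely from arrays below background, which limits what their adjusted p-values show.

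The named genes that fell came from several pathways. Shisa3, an inhibitor of Wnt and FGF receptor maturation, had -5.44 and -4.31 in R141C, above background on 1 of the 2 arrays, and -0.94 and -0.60 in wild type (difference -4.11, SE 0.40, adjusted p = 0.0391). Foxd1, a forkhead factor of kidney stroma, had -4.29 and -4.03 in R141C and -1.31 and -1.48 in wild type (-2.76, SE 0.23, adjusted p = 0.0286). Smpd3, a neutral sphingomyelinase, had -3.87 and -3.27 in R141C and -0.46 and -0.78 in wild type (-2.95, SE 0.26, adjusted p = 0.0293). For all 3 genes the lowest wild-type array lay above the highest R141C array by more than 2. Sncaip, which encodes the synuclein partner synphilin, had -3.65 and -3.77 in R141C and -1.42 and -1.49 in wild type (-2.26, SE 0.19, adjusted p = 0.0293). Lrrc39, an M-band protein of striated muscle, had -7.54 and -7.86 in R141C and -4.42 and -4.22 in wild type (at least 2.33-fold lower, adjusted p = 0.0250). The noncoding RNA A530020G20Rik and the predicted gene Gm5082 were above background only in wild type and fell at least 1.68-fold and 1.51-fold (adjusted p = 0.0250 and 0.0429). The other passing names were 3 unnamed intervals, an unnamed transcript and D930002L09Rik. Lrrc39, A530020G20Rik, Gm5082, the unnamed transcript and D930002L09Rik were tested only because of the wild-type day 6 arrays. Their adjusted p-values have the limit given above for the dim genes that rose.

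The passing interval on chromosome 5 from 120253747 to 120281800 (mm9) is represented by 3 probes. The passing probe read -5.46 and -4.54 in R141C and -1.03 and -1.22 in wild type, while the other probe above background on any day 6 array differed by 0.54. Tbx5, whose probe lies at 120334087 to 120334146 on the same chromosome, is described with the heart factors. The interval on chromosome 13 from 94186098 to 94186634 also has 3 probes, of which 1 was above background, at -3.61 and -3.35 in R141C and -6.88 and -6.77 in wild type. For these 2 intervals the change thus rests on a single bright probe. The chromosome 5 probe was tested only because of the wild-type day 6 arrays, and the chromosome 13 probe only because of the R141C day 6 arrays. Their adjusted p-values have the limit given above for the dim genes that rose. The count of passing genes was sensitive to single arrays: it was 0 without R141C day 6 replicate 1, without either wild-type day 6 array or without either R141C day 0 array, 117 without R141C day 6 replicate 2, and 8 without either wild-type day 0 array.

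The genes of the contractile apparatus lay lower in R141C, and far lower in its replicate 1 than in replicate 2. Of 28 sarcomere genes 26 were tested. For 17 of them both R141C arrays lay below both wild-type arrays, 9 were separated, and none lay above. The background shares are 16.5% and 1.11%. No member passed the test. The median over the tested members was -2.34, with -3.51 in R141C replicate 1 and -0.89 in replicate 2, against 0.07 over all genes. Myh6, the alpha myosin heavy chain of atrial and early heart muscle, read -0.04 and 3.25 in R141C and 5.37 and 5.62 in wild type (difference -3.89, adjusted p = 0.413). Tcap, a titin-binding Z-disc protein, read -3.19 and -1.85 in R141C and 0.15 and 0.04 in wild type (-2.62, adjusted p = 0.180). Both R141C arrays were below wild type for each, by unequal amounts.

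The myosin light chain Myl4 read 1.30 and 5.13 in R141C and 6.68 and 7.0 in wild type (-3.63, adjusted p = 0.477). Cardiac actin, Actc1, read 0.89 and 5.35 in R141C and 6.83 and 7.15 in wild type (-3.87, adjusted p = 0.537). Titin, Ttn, and the atrial light chain Myl7 had the widest spread between the R141C arrays. Ttn read -6.47 and -1.91 in R141C, above background on 1 of the 2 arrays, and -0.57 and 0.05 in wild type, and Myl7 read -1.38 and 3.12 in R141C and 4.56 and 4.74 in wild type. Chosen after their values were seen, the widely used marker Tnnt2, cardiac troponin T, read -0.22 and 3.71 in R141C and 4.90 and 5.41 in wild type, and the myosin-binding protein Mybpc3 read -0.03 and 1.95 in R141C and 3.27 and 3.51 in wild type. Not every muscle transcript did so. Also chosen after their values were seen, desmin (Des) read -0.28 and 0.68 in R141C and -0.02 and -0.06 in wild type, and Tnni3, the adult cardiac troponin I, read 0.07 and -1.39 in R141C and -0.33 and -0.52 in wild type. In these 2 genes the genotypes overlapped. The median of the list was -0.89 without R141C replicate 1, so its size rests largely on that culture.

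**Figure D2:**
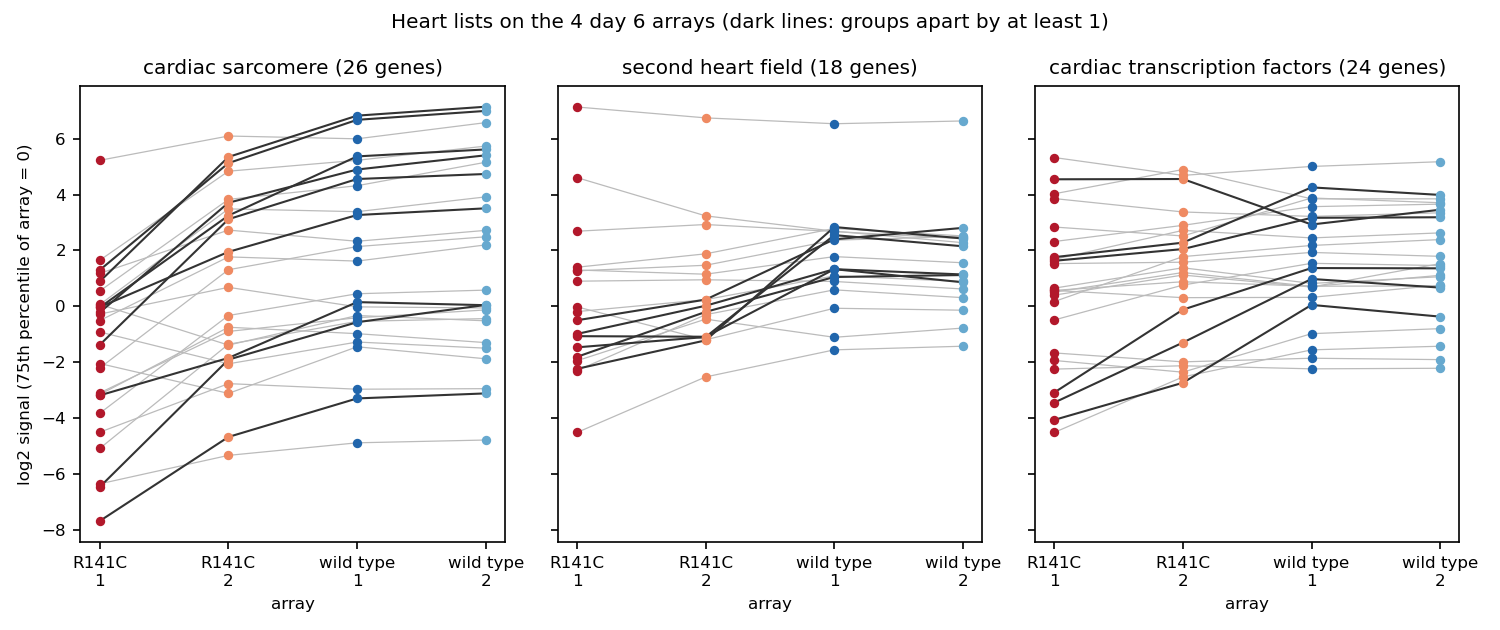
Log2 signal (y axis, 75th percentile of each array at 0) of every tested gene of 3 heart lists on the 4 day 6 arrays (x axis). Each line is 1 gene, dark where the genotypes are apart by at least 1; most sarcomere lines are lowest in R141C replicate 1, and 6 dark lines of the second heart field list lie low on both R141C arrays.

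The natriuretic peptides, hormones secreted by heart muscle, were far lower in both R141C cultures. Nppa read -4.28 and -2.21 in R141C and 1.09 and 1.33 in wild type (difference -4.45, SE 0.93, adjusted p = 0.281), and Nppb read -3.22 and -2.66 in R141C and -0.12 and 0.04 in wild type (-2.90, SE 0.79, adjusted p = 0.404). Neither passed. Of 20 genes of calcium handling, natriuretic peptides and conduction 16 were tested, with a median of -0.87. Of the tested genes, 5 were separated lower and none higher (1.11% and 0.684% over all genes). Among them were the calcium channel Cacna1c, at -4.63 and -2.69 in R141C and -1.59 and -0.69 in wild type, and the calcium release channel Ryr2. Ryr2 read -6.89 and -2.84 in R141C and -1.79 and -1.52 in wild type, again lowest in R141C replicate 1.

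The Nppa promoter is a classic target of Nkx2-5. A search of the RefSeq promoter windows (GRCm38.p6, 250 bases before to 50 after each gene's start) for the Nkx2-5 element TNAAGTG on both strands found it in 3790 of all 32851 windows, in 1 of 15 windows of this list and in 2 of 30 windows of the sarcomere list. The 1 match in the list of calcium handling, natriuretic peptides and conduction was in Nppa, at -241 to -235 from its start, where -1 is the base before the start. The 250 bases before the start (chr4:148000472-148000721, plus strand) are shown with the match in capitals, since Nppa was among the lowest of the heart genes in R141C.
Nppa: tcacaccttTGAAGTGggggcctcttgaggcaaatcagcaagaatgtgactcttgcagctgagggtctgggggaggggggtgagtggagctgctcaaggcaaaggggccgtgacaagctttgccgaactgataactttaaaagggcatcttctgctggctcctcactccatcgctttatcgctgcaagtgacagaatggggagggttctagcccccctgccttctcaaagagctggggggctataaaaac

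Regulators of the heart were split. Of 24 cardiac transcription factors, all tested, 5 were separated lower (1.11% over all genes), 1 was separated higher (0.684%) and none passed. Tbx5, the T-box factor of the first heart field and atria, read -3.45 and -1.30 in R141C and 0.98 and 0.67 in wild type (difference -3.20, SE 0.74, adjusted p = 0.333). Myocd, the myocardin coactivator, read -3.09 and -0.12 in R141C and 1.37 and 1.36 in wild type (-2.97, adjusted p = 0.456). The Iroquois factors Irx5 and Irx3, which pattern ventricular repolarization, read -4.07 and -2.74 in R141C against 0.05 and -0.37 in wild type, and 1.76 and 2.28 in R141C against 4.26 and 3.99 in wild type. Chosen after their values were seen, Irx1 (-0.21 and 1.87 in R141C, 3.99 and 3.77 in wild type) and Irx2 (-2.90 and -1.83 in R141C, 0.81 and 0.63 in wild type) were separated the same way. Hand2, also chosen so, read 1.63 and 2.05 in R141C and 3.17 and 3.19 in wild type (-1.34, adjusted p = 0.411). Tbx3, a T-box repressor of the working muscle programme, was the separated gene on the other side, at 4.55 and 4.56 in R141C and 2.93 and 3.46 in wild type (1.36, adjusted p = 0.652). Gata4 was chosen after its values were seen as a partner of Nkx2-5. It read 1.68 and 2.72 in R141C and 2.45 and 2.63 in wild type, so the genotypes overlapped.

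The second heart field list differed on both R141C arrays by similar amounts. Of its 18 genes, all tested, 6 were separated lower and none higher (1.11% and 0.684% over all genes). Both R141C arrays lay below both wild-type arrays for 12 (66.7%, with 16.5% over all genes). They lay above for 4 (22.2%, with 27.8% over all genes). The median was -1.04, with -1.22 in R141C replicate 1 and -0.87 in replicate 2. Tbx1, the T-box factor of pharyngeal and outflow tract progenitors, read -2.24 and -1.22 in R141C and 2.84 and 2.43 in wild type (difference -4.37, SE 0.51, adjusted p = 0.0711). Foxc2, a forkhead factor of the same mesoderm, read -1.47 and -1.10 in R141C and 2.55 and 2.15 in wild type (-3.63, adjusted p = 0.391). Both were more than 3 below the lower wild-type array on each R141C array. Nr2f1, an orphan receptor of venous and atrial progenitors, read -0.50 and 0.24 in R141C and 2.40 and 2.81 in wild type (-2.74, adjusted p = 0.220). Aldh1a2, the main enzyme of embryonic retinoic acid synthesis, read -1.07 and -1.09 in R141C and 1.33 and 0.86 in wild type (-2.18, adjusted p = 0.313). The remaining separated genes, chosen after their values were seen, were Nr2f2 (-1.81 and -0.20 in R141C, 1.05 and 1.12 in wild type) and Foxc1 (-0.99 and 0.02 in R141C, 1.33 and 1.14 in wild type). Isl1, the marker of the field, also chosen so, read -0.19 and 0.24 in R141C and 1.09 and 0.89 in wild type (-0.97, adjusted p = 0.541).

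Lists of tissues next to heart muscle also held separated members. Over all genes 1.11% were separated lower and 0.684% higher. Of 11 tested epicardial genes 2 were separated lower, Aldh1a2 and the epicardial factor Tcf21, at -3.01 and -2.89 in R141C and -1.15 and -1.41 in wild type. Upk3b, a uroplakin of mesothelium, divided the R141C cultures, with -6.96 and -2.52 in R141C and -5.28 and -5.32 in wild type. It was above background on 1 R141C array and on neither wild-type array. Upk1b, another uroplakin, did likewise, with -7.36 and -3.55 in R141C and -5.25 and -5.0 in wild type, and was above background on 1 array of each genotype. For both uroplakins the other values are near background. Of 11 tested smooth muscle genes 2 were separated lower: the actin Actg2, at -2.97 and -1.47 in R141C and -0.28 and 0.27 in wild type, and the calponin Cnn1, at 3.08 and 2.80 in R141C and 4.27 and 4.66 in wild type. Synpo2, a smooth muscle actin-binding protein, read -4.56 and -2.37 in R141C and -2.82 and -2.31 in wild type, so the genotypes overlapped. Of 16 lateral plate genes 4 were separated lower, the factors Meis1, Prrx1 and Prrx2 and the receptor Pdgfra, and 2 were separated higher, the T-box factors Tbx15 and Tbx4. Meis1, a homeobox cofactor, read 1.90 and 2.40 in R141C and 4.15 and 4.13 in wild type. Tbx4, a hindlimb and allantois factor, read 0.88 and 0.36 in R141C and -2.32 and -0.71 in wild type.

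Several matrix genes differed widely between the R141C cultures. Among 28 tested collagen and matrix genes 3 were separated lower: the cartilage collagen Col2a1 (-0.44 and 2.38 in R141C, 3.92 and 3.63 in wild type), the proteoglycan Vcan (0.89 and 1.76 in R141C, 2.91 and 3.06 in wild type) and the fibrillin Fbn1 (-0.35 and -0.22 in R141C, 0.85 and 0.87 in wild type). Lumican, Lum, read -4.65 and 2.85 in R141C and 0.88 and 1.73 in wild type. Periostin, Postn, read -2.74 and 2.20 in R141C and 0.79 and 2.36 in wild type. In both genes R141C replicate 1 was the lowest array and replicate 2 was within or above the wild-type values. The 3 separated members compare with 1.11% separated lower over all genes. The median of the list was -1.22 in R141C replicate 1 and 0.05 in replicate 2.

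Some genes of platelets and myeloid cells lay higher in both R141C cultures, and most blood genes were not separated. The list of blood progenitors, myeloid cells and platelets had 24 of 28 genes tested. Both R141C arrays lay above both wild-type arrays for 12 of the 24 genes (27.8% over all genes) and below for none (16.5% over all genes), 4 were separated higher (0.684% over all genes), and Srgn and Clec4a3 passed. Pf4, platelet factor 4, a chemokine of platelet granules, read 3.71 and 1.71 in R141C and -2.13 and -1.67 in wild type (difference 4.61, SE 0.72, adjusted p = 0.180). Gp9, a subunit of the platelet receptor for von Willebrand factor, read -0.75 and -1.83 in R141C and -4.17 and -3.03 in wild type (2.31, adjusted p = 0.287). Outside the list, Treml1, a receptor of platelet granules that was among the 12 largest gaps, read 0.00 and -1.20 in R141C and -4.38 and -3.76 in wild type (3.47, adjusted p = 0.145). For all 3 the R141C arrays stood above the wild-type arrays, with replicate 1 the highest.

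Chosen after their values were seen, Gp5, another subunit of that receptor, read -2.57 and -3.55 in R141C and -5.83 and -5.21 in wild type, where it was above background on neither array. Slamf1, a receptor of blood cells, read -4.44 and -5.39 in R141C and -7.54 and -7.05 in wild type, also above background only in R141C. Other blood genes, platelet and megakaryocyte markers among them, did not separate. Also chosen so, Itga2b, the integrin of early blood progenitors and platelets, read 1.40 and -0.54 in R141C and -1.26 and -0.38 in wild type, Runx1, a factor of definitive blood, read 2.02 and 0.15 in R141C and -0.98 and 0.55 in wild type, and Csf1r, the macrophage growth factor receptor, read 2.40 and 1.83 in R141C and 1.65 and 1.69 in wild type. Ikzf1, a lymphoid factor, read -2.14 and -5.05 in R141C and -4.19 and -3.80 in wild type, and Fcgr3, an antibody receptor, read -5.02 and -2.95 in R141C and -4.76 and -5.31 in wild type. Of 21 tested globin and red cell genes 1 was separated, Ahsp, the chaperone of alpha globin, at -1.57 and -1.56 in R141C and -0.11 and 1.5 in wild type. Chosen after their values were seen, the embryonic globin Hbb-bh1 read 7.70 and 6.93 in R141C and 7.51 and 8.56 in wild type, the alpha globin Hba-a2 read 7.64 and 6.22 in R141C and 7.11 and 8.13 in wild type, and Gata1, the factor of red cells and megakaryocytes, read 3.56 and 1.70 in R141C and 1.27 and 3.11 in wild type. In these 3 genes the genotypes overlapped, and the wild-type arrays differed by 1 or more. Tal1, a blood stem cell factor, read 3.66 and 1.60 in R141C and 1.54 and 2.37 in wild type. The adult globin Hbb-b1 read -0.06 and -2.17 in R141C and 0.20 and 1.35 in wild type. Of 22 tested endothelial genes none was separated. Its brightest members were Egfl7, a secreted endothelial protein (6.77 and 6.05 in R141C, 5.69 and 5.89 in wild type), and the VEGF receptor Flt1 (3.78 and 3.47 in R141C, 3.23 and 3.55 in wild type), of whose other 2 bright probes 1 had the opposite sign. Emcn, a sialomucin of vessels, and Sox7, a vessel and endoderm factor, differed by more than 2 between the R141C arrays.

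Interferon-stimulated genes, a set that type I interferon switches on through a shared promoter element, were higher in R141C as a group. Of 39 genes 35 were tested. For 28 of them (80.0%, with 27.8% over all genes) both R141C arrays lay above both wild-type arrays and for 1 below. There were 12 separated higher and none lower, and none passed. The median was 1.36, with 1.83 in R141C replicate 1 and 1.03 in replicate 2. At day 0 it was already 0.66, with 0.52 and 0.56 in the R141C arrays. Rtp4, an interferon-induced chaperone and antiviral protein, read 2.41 and 1.05 in R141C and -1.08 and -1.29 in wild type (difference 2.92, SE 0.42, adjusted p = 0.148). Ifi27, a mitochondrial protein, read 2.11 and 0.48 in R141C and -1.59 and -1.93 in wild type (3.05, adjusted p = 0.184). Ifit3, an RNA-binding antiviral protein, read -2.09 and -1.97 in R141C and -4.18 and -4.80 in wild type (2.46, adjusted p = 0.426). Ifit3 and Ifit1 lie on chromosome 19, whose genes had a median of 0.44 in R141C replicate 1 and 0.03 in replicate 2. The part of that shift in their values was not tested.

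Oasl2, of the oligoadenylate synthetase family, read 1.66 and 0.14 in R141C and -1.63 and -1.98 in wild type (2.71, adjusted p = 0.273). Zbp1, a sensor of Z-form nucleic acid, read 0.44 and -1.74 in R141C and -2.79 and -3.24 in wild type, with the R141C arrays more than 2 apart. Outside the list, the interferon-induced Trim30a, among the 12 largest gaps, read -3.03 and -2.96 in R141C and -5.23 and -5.97 in wild type. Chosen after their values were seen, the transcription factor Irf7 read -4.76 and -5.12 in R141C and -7.41 and -6.58 in wild type, where it was not above background, and the chemokine Cxcl10, the 1 member on the lower side, read 0.14 and -0.52 in R141C and 1.24 and 0.98 in wild type. Of 12 tested interferon receptors and nucleic acid sensors none was separated, with a median of 0.01. The kinase Jak1 read 2.46 and 2.62 in R141C and 2.57 and 2.59 in wild type, and the factor Irf3 read 3.71 and 3.58 in R141C and 3.75 and 3.60 in wild type. The sensor Tlr3 was above background on none of the 4 arrays. The interferon gene Ifnb1 was not tested, being too dim.

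The interferon-stimulated response element, searched on both strands as GAAA, any 2 bases and GAAA again, occurred in 3.44% of all 32851 promoter windows. The list had windows for 25 of its tested genes, and 14 of 29 windows (48.3%) held it, against 1 of 30 for the sarcomere list. The list of blood progenitors, myeloid cells and platelets held it in 3 of 29 windows (10.3%). Cxcl10, which lay lower in R141C, had a match at -213 to -204. No match was found for Rtp4, Ifi27, Oasl2 or Zbp1, which were separated higher. Any link between the element and the higher signals was not tested. Stretches of 160 bases before the start are shown for 5 separated members that held the element there. Each match is in capitals (neighbouring matches overlap in Isg15 and Oas1a). They were chosen after their values were seen. In Gbp2, Ifit1 and Ifit3 the match is on the strand opposite to the gene, so the capitals read as its reverse complement.
Isg15 (chr4:156200819-156200978, minus strand): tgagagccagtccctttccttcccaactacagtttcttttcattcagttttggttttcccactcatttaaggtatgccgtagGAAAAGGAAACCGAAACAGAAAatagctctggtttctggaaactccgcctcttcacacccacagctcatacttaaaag
Gbp2 (chr3:142620503-142620662, plus strand): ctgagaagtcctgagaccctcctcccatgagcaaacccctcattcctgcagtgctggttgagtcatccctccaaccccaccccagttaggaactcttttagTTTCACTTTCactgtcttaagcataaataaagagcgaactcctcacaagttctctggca
Oas1a (chr5:120907526-120907685, minus strand): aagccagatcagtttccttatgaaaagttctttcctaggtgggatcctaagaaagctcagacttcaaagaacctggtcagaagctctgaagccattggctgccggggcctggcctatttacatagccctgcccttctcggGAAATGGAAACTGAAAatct
Ifit1 (chr19:34640729-34640888, plus strand): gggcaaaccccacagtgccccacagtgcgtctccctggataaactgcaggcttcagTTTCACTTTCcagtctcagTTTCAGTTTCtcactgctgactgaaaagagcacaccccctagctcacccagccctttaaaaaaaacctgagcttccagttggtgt
Ifit3 (chr19:34583369-34583528, plus strand): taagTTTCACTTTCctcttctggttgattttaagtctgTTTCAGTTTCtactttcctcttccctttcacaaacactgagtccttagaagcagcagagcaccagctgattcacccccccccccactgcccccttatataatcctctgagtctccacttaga

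The gene of ubiquitin-like Isg15 read 3.75 and 2.15 in R141C and 1.14 and 0.63 in wild type. Gbp2, a guanylate-binding protein, read 2.47 and 1.69 in R141C and 0.43 and -0.04 in wild type. Oas1a, an oligoadenylate synthetase, read 2.65 and 1.77 in R141C and 0.56 and 0.34 in wild type, and Ifit1 read -3.03 and -3.71 in R141C and -5.28 and -7.07 in wild type, which passed background on 1 wild-type array of 2. For all 5 genes shown the genotypes did not overlap, and no adjusted p was below 0.188.

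Hox genes, which give body cells their position along the head to tail axis, were mostly higher in R141C. Of 39 Hox genes 37 were tested, and for 26 of them (70.3%, with 27.8% over all genes) both R141C arrays lay above both wild-type arrays and for 3 below. The median was 1.51, with 2.13 in R141C replicate 1 and 1.03 in replicate 2. At day 0 it was already 0.85, with 1.45 and 0.35 in the R141C arrays. Of these, 5 were separated higher and 1 lower, and none passed. Hoxc6 read 1.55 and 0.49 in R141C and -1.17 and -0.68 in wild type, and Hoxd9 read 0.87 and 0.25 in R141C and -1.63 and -1.04 in wild type. The Hoxd9 difference was 1.90 at day 6 and 3.24 at day 0. Hoxc13 read -4.0 and -4.42 in R141C and Hoxd11 -2.47 and -4.37, against -5.93 and -6.59 and against -6.69 and -5.51 in wild type, where neither was above background. Hoxa2, a hindbrain gene at the head end, was the separated gene on the lower side, at -4.57 and -5.03 in R141C and -2.07 and -2.22 in wild type (difference -2.66, adjusted p = 0.385). Hoxa10 read -0.63 and -3.40 in R141C and -7.33 and -4.32 in wild type, and Hoxb9 read 2.04 and -0.64 in R141C and -1.90 and -1.53 in wild type. In both the R141C arrays lay more than 2 apart with replicate 1 the higher. Cdx2, a caudal homeobox factor that activates posterior Hox genes and also marks trophoblast and gut, read 4.76 and 4.30 in R141C and 1.54 and 1.76 in wild type (2.89, SE 0.60, adjusted p = 0.276). At day 0 its difference was 2.56.

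**Figure D3:**
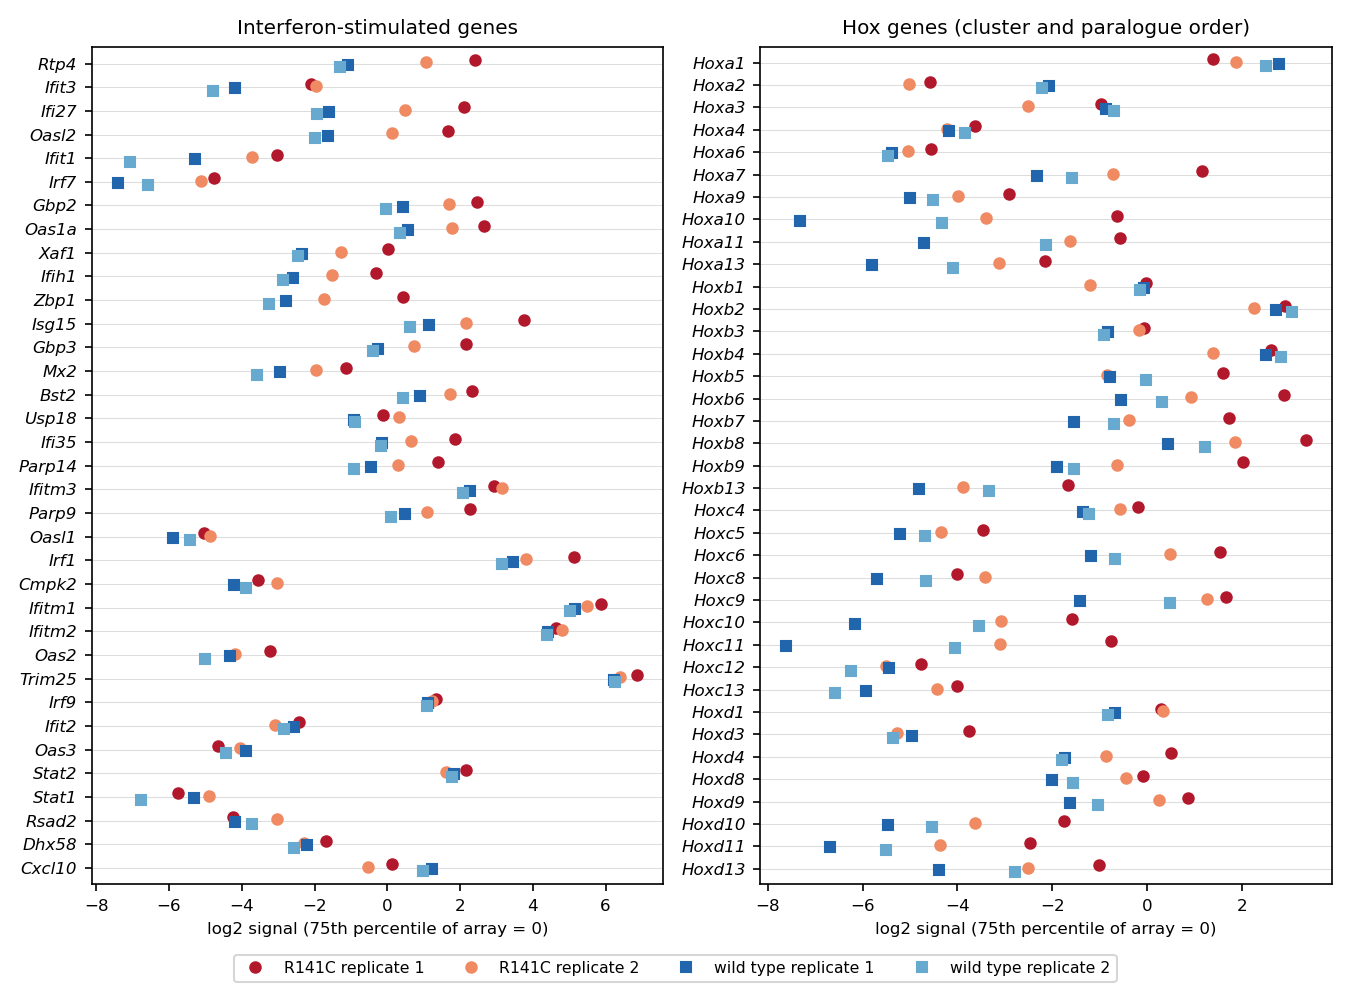
Log2 signal (x axis, 75th percentile of each array at 0) on the 4 day 6 arrays for the 35 tested interferon-stimulated genes, ordered by gap, and the 37 tested Hox genes, ordered by cluster and paralogue number; circles are R141C and squares wild type. Circles lie right of squares for 28 interferon-stimulated genes and 26 Hox genes, and Hoxa2 stands out on the other side.

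Neural genes were lower in part. Of 26 genes 21 were tested, and 6 were separated lower and none higher (1.11% and 0.684% over all genes). The median was -0.76, with -0.85 in R141C replicate 1 and -0.26 in replicate 2. Foxb1, a forkhead factor of the embryonic brain, read -4.23 and -3.22 in R141C and -1.07 and -1.04 in wild type (difference -2.67, SE 0.37, adjusted p = 0.133). Elavl3, an RNA-binding protein of neurons, read -4.63 and -4.15 in R141C and -2.47 and -1.55 in wild type (-2.38, adjusted p = 0.180). Pax6, a factor of neural progenitors and the eye, read -7.42 and -5.11 in R141C, above background on 1 of the 2 arrays, and -3.01 and -3.22 in wild type. Tubb3, the neuronal tubulin, read 0.13 and 0.48 in R141C and 1.96 and 2.25 in wild type (-1.80, adjusted p = 0.198). Hes5, also separated, is given with the Notch list.

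Some endoderm and trophoblast genes lay higher in R141C. Of 23 tested visceral endoderm genes 3 were separated higher (0.684% over all genes) and none lower (1.11% over all genes). Amn, the partner of cubilin in nutrient uptake, read 0.37 and 0.19 in R141C and -2.52 and -2.22 in wild type (difference 2.65, SE 0.28, adjusted p = 0.0568). The apolipoproteins Apob and Apoc2 read -0.88 and 0.99 in R141C against -2.25 and -2.11 in wild type, and 2.12 and 3.34 in R141C against 0.37 and 0.95 in wild type. Afp, alpha-fetoprotein, divided the R141C cultures at 0.10 and 3.52, with 3.35 and 2.81 in wild type, and the fibrinogen chain Fgg did so at -5.39 and -1.97, with -3.88 and -3.72 in wild type. Unlike the sarcomere list, this list had its larger median in R141C replicate 2 (0.96) and the smaller in replicate 1 (0.06). Over all genes the medians were 0.04 in replicate 2 and 0.12 in replicate 1, so the list median was not raised in replicate 1. Among 15 tested endoderm factors Cdx2 alone was separated, and Foxa1, a pioneer factor, read 0.26 and 3.25 in R141C and 3.10 and 2.79 in wild type. The median of the endoderm factors was 0.05 in R141C replicate 1 and 0.52 in replicate 2. Among 15 tested trophoblast genes and keratins 3 were separated higher: Cdx2, the placental homeobox gene Esx1 (-0.74 and -0.10 in R141C, -2.65 and -2.32 in wild type) and Tfap2c (3.15 and 2.42 in R141C, 1.12 and 1.01 in wild type). Of 22 pluripotency genes none was separated, and the median was 0.23. The bright members Dppa5a (6.15 and 5.82 in R141C, 5.34 and 5.29 in wild type) and Lin28a (5.34 and 5.38 in R141C, 4.73 and 4.75 in wild type) lay slightly higher without overlap, whereas Pou5f1 (3.91 and 3.10 in R141C, 3.40 and 2.48 in wild type) and Nanog (3.46 and 3.56 in R141C, 3.51 and 2.93 in wild type), chosen after their values were seen, overlapped. Prdm14 and Dppa3, of naive and germ cells, differed by more than 2 between the R141C arrays.

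Among signalling pathways the Wnt list, the longest with 42 genes, had the most separated members. Of 41 tested, 6 were separated lower (1.11% over all genes) and 1 higher (0.684% over all genes). Without regard to the gap, 14 (34.1%, with 16.5% over all genes) lay below wild type on both R141C arrays. Another 13 (31.7%, with 27.8% over all genes) lay above. The list median was -0.65 in R141C replicate 1 and 0.15 in replicate 2. Wnt2, a ligand of the posterior heart field, read -2.74 and -2.01 in R141C and 0.00 and 0.19 in wild type (difference -2.47, SE 0.30, adjusted p = 0.0740). Sfrp5, a secreted Wnt antagonist of heart progenitors, read -0.38 and 1.76 in R141C and 4.07 and 4.15 in wild type (-3.42, adjusted p = 0.216), although its chromosome, 19, had the raised median given above in R141C replicate 1. Sfrp1, a related antagonist, read -2.10 and -1.22 in R141C and 0.65 and 0.42 in wild type. Antagonists (Shisa3, Sfrp5 and Sfrp1) and a ligand were thus low together. The receptor Fzd10 was separated higher, at 4.15 and 3.34 in R141C and 2.07 and 2.24 in wild type. Shisa2 and Wif1, also antagonists, differed by more than 2 between the R141C arrays.

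Of 23 tested FGF genes Fgf3, a ligand, was separated higher, at 1.40 and 1.74 in R141C and -0.43 and -0.55 in wild type, and Fgf1 lower, at -3.42 and -4.03 in R141C and -2.19 and -1.99 in wild type. Fgf5, an epiblast ligand, read -1.06 and 2.26 in R141C and 2.76 and 2.35 in wild type. Of 19 Notch genes 11 (57.9%, with 16.5% over all genes) lay below wild type on both R141C arrays and 1 (5.3%, with 27.8% over all genes) above. The targets Hes5 (-1.78 and -1.74 in R141C, 0.11 and -0.44 in wild type) and Heyl (-5.30 and -4.76 in R141C, -3.71 and -3.54 in wild type) were separated. Of 16 hedgehog genes Foxd1 fell, and the ligand Dhh was separated lower, at -2.91 and -2.83 in R141C and -1.70 and -1.69 in wild type. The ligand Shh and its binding protein Hhip differed by more than 2 between the R141C arrays. Of 17 tested retinoic acid genes 10 (58.8%, with 16.5% over all genes) lay below wild type on both R141C arrays and 3 (17.6%, with 27.8% over all genes) above. Aldh1a2 and the retinol transporter Stra6 (-4.77 and -3.35 in R141C, -1.92 and -2.04 in wild type) were separated, and the receptor Rarb read -1.62 and 0.59 in R141C and 1.74 and 1.49 in wild type. The 14 other lists, among them cell cycle, BMP, primitive streak and glycolysis genes, had 6 members separated higher and 5 lower among 253 tested, with list medians between -0.27 and 0.36.

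**Figure D4:**
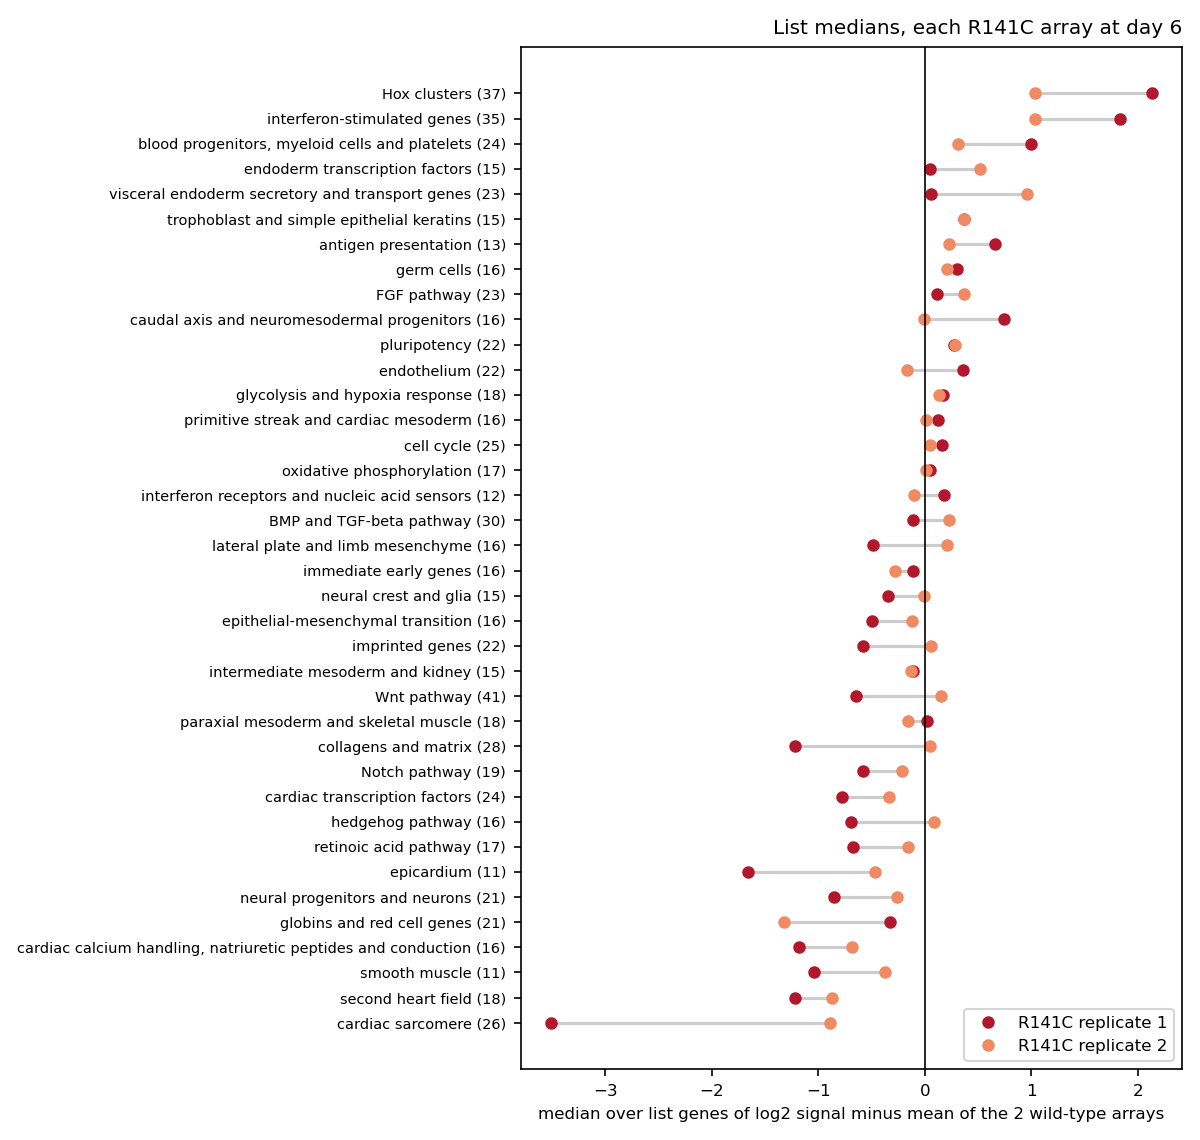
Median over the tested genes of each list (number in brackets) of the log2 signal on an R141C array minus the mean of both wild-type arrays (x axis), for R141C replicate 1 (dark) and replicate 2 (light). The Hox and interferon lists lie highest on both arrays, and the sarcomere list lies at -3.51 and -0.89.

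The largest gaps outside these lists belonged to genes of varied tissues. Syt10, a synaptotagmin of neurosecretion, read -3.76 and -1.69 in R141C and 3.82 and 3.49 in wild type (difference -6.38, SE 1.08, adjusted p = 0.188), and its day 0 difference was -2.87. Alx1, a craniofacial homeobox factor, read -4.67 and -3.13 in R141C and 0.01 and -0.11 in wild type (-3.85, adjusted p = 0.180). Fa2h, a fatty acid hydroxylase, Prm1, a protamine of sperm chromatin, the keratin Krt6a, Vsnl1, a neuronal calcium sensor, and a, the agouti pigment gene, stood above background in wild type alone, on both its arrays. Fa2h was at least 6.65-fold lower (adjusted p = 0.0740), Prm1 13.7-fold (0.194), Krt6a 2.88-fold (0.183), Vsnl1 6.62-fold (0.148) and a 4.39-fold (0.351). Fa2h, Krt6a, Vsnl1 and a were tested only because of the wild-type day 6 arrays. Their adjusted p-values have the limit given above for the dim genes that rose. Prm1 was above background on both arrays of each genotype at day 0, where its difference was -2.16. On the other side Igfbp1, a binding protein of insulin-like growth factors, read -2.09 and -1.77 in R141C and -4.99 and -4.37 in wild type (2.76, adjusted p = 0.377).

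Chromosomes also differed between the cultures. The genes of chromosome 1 had a median of 0.33 in R141C replicate 1 and 0.12 in replicate 2 relative to the wild-type mean, and those of chromosome 19 had 0.44 and 0.03. On chromosome 8 the medians were 0.14 and -0.25, and the wild-type arrays differed there by 0.15. At day 0 the medians of R141C replicates 1 and 2 were 0.20 and -0.15 on chromosome 1, 0.40 and -0.07 on chromosome 19, and 0.18 and -0.25 on chromosome 8. Chromosome 8 held 2 of the genes separated higher (0.145% of its 1377 tested genes) and 24 of those separated lower (1.74%). Foxc2, Irx3, Irx5, Hand2, Tubb3, Sfrp1, Smpd3, Fa2h and Ces2h lie on it, and the part of its shift in their values was not tested. With the median of each chromosome removed on every array, 136 of the 177 higher genes and 284 of the 288 lower genes were still separated, and 13 genes passed, 11 of the 17 among them.

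**Figure D5:**
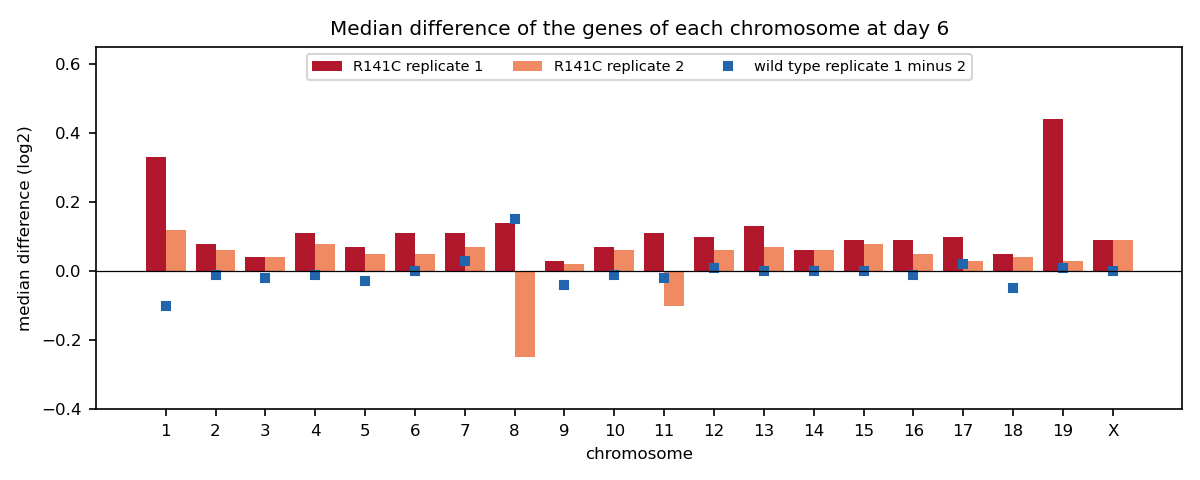
Median over the tested genes of each chromosome (x axis) of the log2 signal on an R141C day 6 array minus the wild-type mean (bars, R141C replicate 1 dark and replicate 2 light), and of wild-type replicate 1 minus replicate 2 (squares). Replicate 1 stands at 0.33 on chromosome 1 and 0.44 on chromosome 19, and replicate 2 at -0.25 on chromosome 8.

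Whether a day 6 difference was larger than that at day 0 was tested gene by gene as an interaction of genotype and day. No gene passed in limma (0 of 25892, with 1460 at an unadjusted p under 0.05), although the median of the sarcomere list was -2.34 at day 6 and 0.45 at day 0. For Tbx1 the difference was -4.37 at day 6 and -0.25 at day 0, for Pf4 4.61 and -0.31, for Nppa -4.45 and 0.90, and for Rtp4 2.92 and 2.13.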

How the data were processed

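Per the file headers the scanner files came from Agilent Feature Extraction 11.5.1.1 (10.5.1.1 per the submitters' processing notes). The authors deposited the processed signal, an intensity with background subtracted, and the mean and background intensity of each spot. The deposited spot flags (other) are 0 or 1. The deposited series matrix holds log2 values with array medians of 8.99 to 9.04; its scaling is not stated, and it was used as an alternative. Control spots and outlier spots (131 to 251 per array) were left out, spots of a probe were averaged, log2 was taken and the 75th percentile of each array was subtracted. The probe with the highest mean over 8 arrays stood for a gene. Probe positions are mm9, from the files. The number of arrays limits the precision. All arrays were on 1 slide and in 1 scan.

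Limma 3.58.1 (R 4.3.3) fitted 4 group means to all 8 arrays, two-sided, with 4 residual and 2.7 prior degrees of freedom. On simulated data for R141C against wild type at day 6 (25892 genes), 58 of 100 genes changed by 2 on the log2 scale and 93 of 100 changed by 4 were recovered, with 11 false calls. The simulation gave each gene the same spread on all 8 arrays. In the data the R141C day 6 arrays differed by a median of 0.36 and the wild-type ones by 0.17. Recovery and false calls on the real arrays may therefore differ. The fit treats all 8 arrays as independent. The 38 lists, the comparison and the naming rule were chosen with earlier results of these data known. Named were Nkx2-5, passing genes with a symbol, the 12 largest gaps each way, up to 4 separated list members each way (otherwise the 2 brightest) and up to 2 members with the R141C arrays over 2 apart. Lists of 24 kinds are described; some members are not reported here. Promoter sequences are RefSeq's (GRCm38.p6). Figures were drawn with matplotlib 3.10.9 in Python 3.11.15.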

Additional observations from a re-analysis of the deposited data

Results flagged for a closer look

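For 13 gene lists both R141C arrays lay on one side of wild type at day 6 and both on the other side at day 0, by the list medians. These opposite directions were not tested. The median differences, R141C minus wild type, at day 6 and day 0 were -2.34 and 0.45 for cardiac sarcomere genes, -0.87 and 0.19 for calcium handling, natriuretic peptides and conduction, -0.34 and 0.34 for cardiac transcription factors, -1.04 and 0.40 for the second heart field, -0.69 and 0.53 for epicardium and -0.90 and 1.04 for smooth muscle. They were -0.23 and 0.88 for intermediate mesoderm and kidney, -0.57 and 0.27 for the retinoic acid pathway, -0.22 and 0.58 for epithelial-mesenchymal transition and -0.20 and 0.20 for immediate early genes. The lists on the higher side at day 6 were pluripotency at 0.23 and -0.56, the FGF pathway at 0.27 and -0.14, and glycolysis and hypoxia response at 0.14 and -0.12. Sides were taken against 0. Over all genes R141C replicates 1 and 2 had medians of 0.12 and 0.04 at day 6, and of 0.07 and -0.08 at day 0. In replicate 1 the FGF list at day 6 (0.11) and the calcium handling list at day 0 (0.02) were below these. Those 2 lists therefore did not change sides relative to all genes. Groups of 2 arrays are too small to look for an outlying sample.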

How the results depend on the processing

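The 17 passing genes depended on the setting. There were 0 with the filter on all 8 arrays, with no filter on dim probes, with trend and robust settings, with only the day 6 arrays and with a replicate block, 1 with the deposited series matrix values, 5 with normexp background correction, 13 with the median of each chromosome removed, 15 with quantile normalization and 17 with a median shift, with the mean of a gene's probes or with a minimum fold of 2. Leaving out 1 array gave 0 to 117. The 12 passing genes with a symbol kept their direction under each of these fits that held them. The 465 separated genes were 206 with the filter on all 8 arrays and 194 with normexp, 11472 at any gap above 0 and 77 at a gap of at least 2, between 370 and 558 under the other scalings and filters, and 465 to 2399 with 1 array left out, which leaves 1 array in a group. For the difference of effects between the days, 0 genes passed, against 7 with quantile normalization and 1 with the deposited values. With normexp Tlr3 (0.15) and Upk1b (0.25) turned sign. Leaving out 1 array turned the sign of 21 named genes, and their ranges were Afp -2.98 to 0.44, Foxa1 -2.69 to 0.31, Gata1 -0.49 to 1.37, Gata4 -0.85 to 0.18, Hhip -2.32 to 0.56, Ikzf1 -1.05 to 1.86, Jak1 -0.12 to 0.05, Lum -5.96 to 1.54, Postn -4.32 to 0.62, Sox7 -0.09 to 1.95, Synpo2 -2.0 to 0.20, Tal1 -0.36 to 1.70, Upk1b -2.24 to 1.57, Wif1 -1.67 to 0.92, Des -0.24 to 0.73, Fgg -1.59 to 1.83, Hba-a2 -1.40 to 0.02, Irf3 -0.10 to 0.05, Tlr3 -1.40 to 0.77, Tnni3 -0.97 to 0.50 and Upk3b -1.66 to 2.78. The sarcomere median was -1.86 with normexp and -2.42 with a median shift, and the interferon-stimulated median was between 1.03 and 1.83 over all alternatives. Deviations of same-numbered arrays correlated at 0.07 between the genotypes at day 6 and at 0.00 between the days in wild type, but at 0.34 between the days in R141C, so R141C arrays of 1 number may not be independent across days. The labels do not say what a number marks, and a replicate block called 0 genes. Dim genes are limited by signal over background. Of the 177 higher separated genes 150, and of the 288 lower ones 260, were above background on both arrays of the genotype with the higher signal. Of these, 60 of the higher and 40 of the lower genes were above background on neither array of the other genotype.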
